A study of Mus musculus with 5 samples.

Results

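Liver gene expression was compared between leptin-deficient ob/ob mice on chow and wild-type (WT) mice on chow, that is 2 of the 5 arrays of the series. Both groups had the C57BL/6 background per the labels, were kept on their diet for 16 weeks and received no nordihydroguaiaretic acid (NDGA), a plant lignan that inhibits lipoxygenases. RNA of 3 animals went into each group per the series' design text, and each group has 1 array, a Phalanx Mouse OneArray hybridised in 1 colour with Cy5-labelled amplified RNA. Whether the RNA of the animals was pooled, and the age and sex of the mice, are not given in these sources. The other 3 arrays held ob/ob mice on chow with NDGA at 2.5 g per kg of food, WT mice on a high-fat diet with the same dose of NDGA, and WT mice on the high-fat diet. They entered the normalization and are used below only to place a gene's values. With 1 array a group there is no replicate spread and no test, so every difference below is between these 2 arrays.

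Leptin is the hormone by which fat tissue reports its stores to the hypothalamus. The ob/ob mouse carries a spontaneous mutation of its gene, Lep, overeats, becomes obese and insulin resistant, and stores large amounts of triglyceride in its liver. Leptin also acts on the pituitary axis that releases growth hormone, and the timing of growth hormone pulses sets which genes mouse liver expresses at male or at female levels. The fatty liver of these mice is known for high lipid synthesis and for genes that PPAR-gamma, a nuclear receptor of fat storage, drives in adipocytes.

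Of 16637 genes named on the array, 8319 passed the filter on dim probes. It asked for a mean of the 2 chow arrays' log2(normalized intensity + 50) values of at least 7.125, the level of a normalized intensity of 89.6. Differences are ob/ob chow minus WT chow on the scale of log2(normalized intensity + 50), which understates those of dim genes, and levels are normalized intensities, which cannot be set against each other between genes. By a 2-fold rule 86 genes (1.03%) were higher in ob/ob liver and 149 (1.79%) were lower, together 2.82% of the genes that passed. Counts of list members past 2-fold below are to be read against these shares. Without normalization the ob/ob array lay lower as a whole, by -0.14 at the median, and the same rule gave 47 higher and 202 lower genes, so that 18.9% of the counted genes were higher against 36.6% with normalization. The median difference over all genes that passed was 0.035, and 89.3% lay within 0.5 of 0. Beside the 149 lower genes, 3519 of the 8319 lay below 0 by less than 2-fold. The only yardstick of error came from 839 genes with a pair of passing probes, whose probes differed with an SD of 0.29 per probe. That yardstick covers probes on the same arrays and not the spread between mice. In whole liver, fewer cells of a type and less RNA per cell cannot be told apart.

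**Figure D1:**
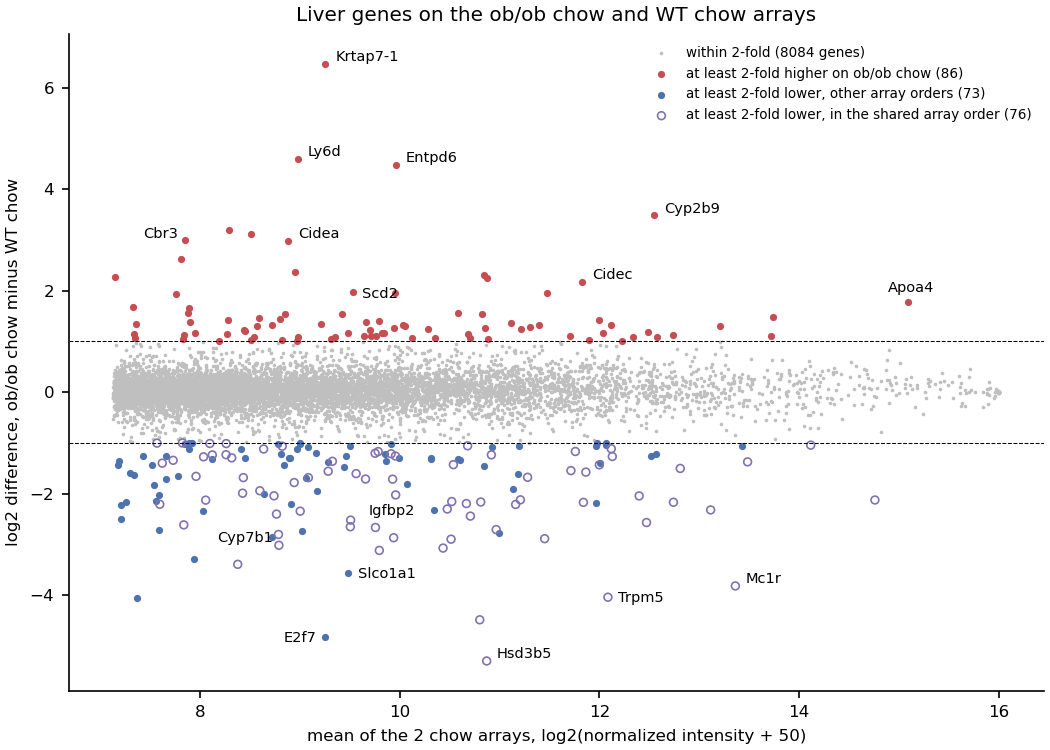
Log2 difference, ob/ob chow minus WT chow, against the mean of both arrays for the 8319 genes that passed the filter. The 86 higher genes are filled red, and the 149 lower genes are drawn as 73 filled blue points and, for genes that share an order over the 5 arrays, 76 open circles. Dashed lines mark 2-fold, and Hsd3b5 at -5.30 and Krtap7-1 at 6.47 are the extremes.

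The 12 highest genes were led by single-array readings. Krtap7-1, a keratin-associated protein of hair, read 5702 on ob/ob chow and 14.7 on WT chow, with 22.9 to 40.8 on the other 3 arrays. Entpd6, a nucleotide hydrolase, at 4.48, and Slc39a2, a zinc transporter, at 3.19, had the same form: their ob/ob chow reading was at least 4-fold above every other array. These 3 genes are therefore carried by the ob/ob chow array alone. The rest did not stand on that array alone. Ly6d, a cell surface protein of the LY6 family, read 2429.9 on ob/ob chow, 3421 on ob/ob with NDGA, against 369 on WT high-fat with NDGA, 937 on WT high-fat and 52.5 on WT chow, a difference of 4.60 between the chow arrays. Tnnt3, which encodes a fast muscle troponin, had 1023 on ob/ob chow and 73.4 on WT chow (3.12). Cbr3, a carbonyl reductase, had 601 on ob/ob chow and 31.6 on WT chow (3.00). The rest of the 12 were Cyp2b9, Cidea, Sdcbp2, Gstm3, Anxa2 and Chil3, at 3.48, 2.99, 2.63, 2.37, 2.30 and 2.27.

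Leptin itself gave no check of the genotype label in liver. The Lep probe read 5.91 on ob/ob chow and 17.5 on WT chow, both far below the filter. Lepr, its receptor, read 354 on ob/ob chow and 272 on WT chow (0.33). Of 10 passing members of the leptin receptor pathway, 0 differed 2-fold either way and the median was 0.13, with Socs3, the feedback inhibitor of the receptor, at 0.14 and Stat3, its main signal transducer, at -0.22. These differences lie close to or within the probe SD of 0.29.

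Among 8 passing genes of insulin-like growth factors and their binding proteins, 2 were lower by 2-fold or more, Igfbp2 and Igf1, and 4 lay above and 4 below 0 (median 0.02). Igfbp2, a binding protein whose liver expression leptin raises in mice, read 529 on ob/ob chow, 542 on ob/ob with NDGA, against 2843 on WT high-fat with NDGA, 1441 on WT high-fat and 2843 on WT chow. Both ob/ob arrays lay below all 3 WT arrays, and the chow difference was -2.32. Igf1, the growth factor that liver secretes in answer to growth hormone, read 2779.8 on ob/ob chow and 5661 on WT chow (-1.01). Within 2-fold, Igfals, which carries Igf1 in blood, was at -0.78, Igfbp1, a binding protein that insulin represses, at 0.62, Igfbp5 at 0.57, Igfbp3 at 0.07 and Igfbp4 at -0.02. The growth hormone receptor gene Ghr was at -0.13. Among 7 passing members of the growth hormone pathway, Igf1 was the 1 gene past 2-fold, and it was at -0.97 with the chow arrays quantile normalized alone.

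Genes with a sex bias in mouse liver had, among the 54 lists examined, the medians of passing members furthest from 0. Of 18 passing male-biased genes, 10 were lower by 2-fold or more in ob/ob liver and 0 higher (median -1.18), against 1.79% lower among all genes. Of 16 passing female-biased genes, 6 were higher by 2-fold or more and 0 lower (median 0.80), against 1.03% higher among all genes. Over all members on the array, dim ones included, the medians were -0.41 for 24 male-biased and 0.21 for 23 female-biased genes. By that measure the male-biased median was still the furthest from 0, but the female-biased median was not next. Lists further from 0 included cholesterol synthesis at -0.30, stellate cells at 0.28 and macrophages at 0.26. Transcripts of the Y chromosome read alike where they could be read. Kdm5d read 115 on ob/ob chow and 112 on WT chow, Eif2s3y read 107 on ob/ob chow and 107 on WT chow, both just above the filter, and Uty and Usp9y were near background on both arrays.

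Hsd3b5, a steroid reductase of male mouse liver, had the lowest difference of the genes that passed. It read 248 on ob/ob chow, 231 on ob/ob with NDGA, against 453 on WT high-fat with NDGA, 367 on WT high-fat and 11690.2 on WT chow. The WT chow reading stands alone, at least 4-fold above every other array, so the difference of -5.30 is carried by that array. Slco1a1, an uptake transporter for organic anions, read 157 on ob/ob chow, 108 on ob/ob with NDGA, against 452 on WT high-fat with NDGA, 772 on WT high-fat and 2397 on WT chow (-3.56, or -2.18 averaged over its probes). Here both ob/ob arrays lay below all WT arrays. Cyp7b1, the oxysterol hydroxylase of the alternative bile acid pathway, had the same arrangement, with 106 on ob/ob chow, 155 on ob/ob with NDGA, against 509 on WT high-fat with NDGA, 804 on WT high-fat and 1083 on WT chow (-2.86). Susd4, a regulator of complement, read 28.3 on ob/ob chow, below the filter, and 717 on WT chow (-3.29, or -2.14 averaged over its probes).

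The other 6 lower male-biased genes were less far apart. The carboxylesterase Ces3b was at -1.50, and its other passing probe was lower as well. Nudt7, a peroxisomal hydrolase of coenzyme A, was at -1.48, the complement component C6 at -1.43 (-0.69 averaged over its probes), the testosterone hydroxylase Cyp2d9 at -1.32, Keg1 at -1.23 and Ttc39c at -1.12 (-0.99 averaged over its probes). Nudt7 and Cyp2d9 were low on the ob/ob chow array but not on the other ob/ob array, where Nudt7 read 927 and Cyp2d9 read 2270.1. The major urinary protein Mup3 was close to the limit of the scanner, with 55900.2 on ob/ob chow and 65862 on WT chow, where it was saturated, so its difference of -0.24 is compressed.

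Among female-biased genes, Cyp2b9 and Cyp2b13, steroid- and drug-metabolising cytochromes P450 that adult male mouse liver keeps low, were highest. Cyp2b9 read 19997 on ob/ob chow, 20659 on ob/ob with NDGA, against 13905 on WT high-fat with NDGA, 17467 on WT high-fat and 1743 on WT chow. WT chow was the low array and the other 4 lay close together, with a chow difference of 3.48. Cyp2b13 read 1119 on ob/ob chow, 1529 on ob/ob with NDGA, against 698 on WT high-fat with NDGA, 786 on WT high-fat and 351 on WT chow (1.55). Cyp2b10, the phenobarbital-inducible member of the subfamily, was at 0.83. The genes are neighbours on chromosome 7, with Cyp2b10 at chr7:25897658-25926624, Cyp2b13 at chr7:26061388-26096197 and Cyp2b9 at chr7:26173350-26210661 (GRCm38.p6, RefSeq). Whether their array probes tell near-identical transcripts apart was not tested.

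The start regions of Cyp2b9 and Cyp2b13 are printed because the genes differed unequally between the arrays (3.48 for Cyp2b9 and 1.55 for Cyp2b13) while these sequences are nearly the same. The RefSeq windows run from 250 bases before to 50 bases after an annotated start on the plus strand, at chr7:26173159-26173458 for Cyp2b9 and chr7:26061245-26061544 for Cyp2b13 (GRCm38.p6). For both genes the start of the gene coordinates given above lies inside the window, upstream of the start that the window uses. Of 300 bases 298 are identical (99.3%), and capitals mark the 2 that differ.
Cyp2b9: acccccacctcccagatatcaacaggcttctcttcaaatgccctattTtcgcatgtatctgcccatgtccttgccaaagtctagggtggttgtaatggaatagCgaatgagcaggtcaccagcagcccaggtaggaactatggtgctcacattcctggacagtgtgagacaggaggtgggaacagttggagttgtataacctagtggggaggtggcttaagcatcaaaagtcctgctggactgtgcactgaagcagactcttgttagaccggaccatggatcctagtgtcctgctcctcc
Cyp2b13: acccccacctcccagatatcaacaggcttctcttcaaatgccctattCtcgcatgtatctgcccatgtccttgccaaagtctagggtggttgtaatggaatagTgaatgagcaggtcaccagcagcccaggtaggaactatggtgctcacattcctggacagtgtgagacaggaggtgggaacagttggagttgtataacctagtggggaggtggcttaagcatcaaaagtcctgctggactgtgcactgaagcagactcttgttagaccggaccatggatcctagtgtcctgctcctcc

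Growth hormone acts on liver genes through STAT5, which binds the sequence TTCNNNGAA, the same on both strands. Of the male-biased genes that passed, 16 had a RefSeq promoter window and 2 held this motif. Among the 8 lower genes with a window it was found in Keg1 alone. Of all 27025 genes with a window, 9.55% had it in at least 1 window. Of the passing female-biased genes it was in a window of 1 of 10, and of 0 of the 4 higher ones with a window. The window of Keg1 is printed because it carries 2 matches, in capitals, which begin 173 and 107 bases before the start and do not overlap (chr19:12695540-12695839, plus strand, GRCm38.p6). A match is a stretch of letters and not a binding site, and no match says only that the letters are not in this window.
Keg1: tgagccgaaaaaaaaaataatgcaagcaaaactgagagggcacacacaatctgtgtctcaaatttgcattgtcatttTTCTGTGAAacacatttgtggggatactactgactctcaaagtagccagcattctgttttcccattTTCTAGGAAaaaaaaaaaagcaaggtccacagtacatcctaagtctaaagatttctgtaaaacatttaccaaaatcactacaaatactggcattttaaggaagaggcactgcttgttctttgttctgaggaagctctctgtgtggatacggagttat

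The other higher female-biased genes had WT chow as the lowest of the 5 arrays too. Rgs16, a regulator of G protein signalling, read 14823 on ob/ob chow and 6001 on WT chow (1.30). Cyp17a1, a steroid hydroxylase, read 3609.8 on ob/ob chow and 1489 on WT chow (1.25). Abcd2, a peroxisomal transporter of long-chain fatty acids, was at 1.26, or 0.78 averaged over its probes, and Vldlr, the receptor for very low density lipoprotein, at 1.15. Below 2-fold were Fmo1 at 0.95 and Hao2 at 0.76, while Acot3 was the lowest member at -0.40.

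**Figure D2:**
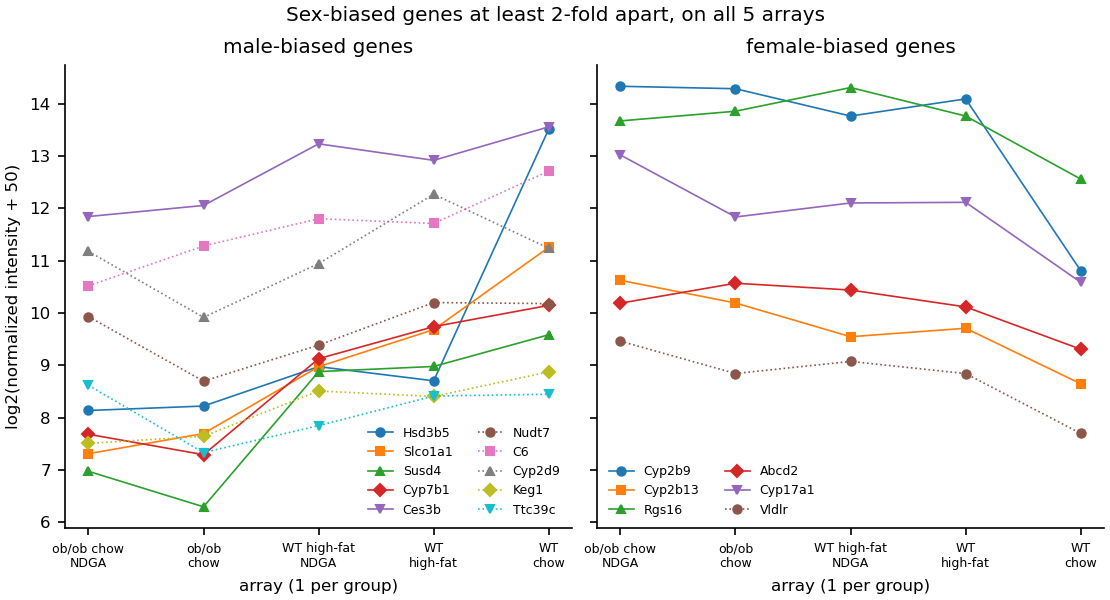
Values of the 10 male-biased and 6 female-biased genes that were at least 2-fold apart, as log2(normalized intensity + 50), on each of the 5 arrays with 1 array per group. Hsd3b5 is high on WT chow alone, Slco1a1, Susd4 and Cyp7b1 are low on both ob/ob arrays, and all 6 female-biased genes are lowest on WT chow.

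Genes that coat and fuse lipid droplets included the fat storage genes furthest apart. Cidea, a droplet fusion protein of adipocytes and fatty liver, read 1279 on ob/ob chow, 5057 on ob/ob with NDGA, against 1127 on WT high-fat with NDGA, 488 on WT high-fat and 118 on WT chow. Cidec, its relative that enlarges droplets, read 7643 on ob/ob chow, 12552 on ob/ob with NDGA, against 6915 on WT high-fat with NDGA, 6606 on WT high-fat and 1654 on WT chow. For both genes WT chow was the lowest of the 5 arrays, and the chow differences were 2.99 for Cidea and 2.17 for Cidec. The droplet coat gene Plin4 was at 1.07, with 185 on ob/ob chow and 61.8 on WT chow, the WT value being below the filter. Of 16 passing droplet genes, 3 were at least 2-fold higher, against 1.03% of all genes, and 0 were lower. Their median of 0.17 turned to -0.09 without normalization. Plin2, the general hepatic coat protein, read 18407 on ob/ob chow and 17439 on WT chow (0.08), and Plin5, the coat of oxidative tissues, was at 0.39. The lipases Pnpla2 and Lipe were at -0.04 and -0.06.

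PPAR-gamma and the genes it drives in fatty liver had 5 of 13 passing members past 2-fold upward and 2 downward. Among all genes 1.03% were higher and 1.79% lower. Of the 13 members 7 lay above and 6 below 0. The median was 0.61 over these 13, 3 of which passed on 1 chow array alone, and 0.08 over all 18 members on the array. Aqp7, a channel for water and glycerol, was among the 6 at -0.27 on its brightest probe. Its other probes, too dim to pass, were at 1.45 and 1.35. PPAR-gamma, with a partner receptor, binds DR1, the letters AGGTCA repeated with any single base between. Searched on both strands, exact DR1 was in a promoter window of 0.0481% of the 27025 genes with a RefSeq window, of 0 of the 15 passing droplet genes with a window and of 0 of the 11 such genes of the PPAR-gamma list, which says only that these letters are not in these windows. The receptor gene Pparg read 1219.5 on ob/ob chow and 496 on WT chow (1.22). Beside Cidea, Cidec, Plin4 and Vldlr, which also stand in other lists, Mogat1, a monoacylglycerol acyltransferase, was at 0.73 and the lipoprotein lipase Lpl at 0.61. The 2 lower members were Cfd, the adipocyte protease adipsin, and Pltp, the phospholipid transfer protein. Cfd read 21.9 on ob/ob chow, 113 on ob/ob with NDGA, against 3181 on WT high-fat with NDGA, 789 on WT high-fat and 274 on WT chow (-2.17). The defining fat cell markers Adipoq, Plin1 and Fabp4 were below the filter, at 43.7, 13.2 and 7.90 on ob/ob chow and at 47.6, 17.7 and 2.09 on WT chow.

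Fatty acid synthesis genes were higher in part. Scd2, a fatty acid desaturase, read 1405 on ob/ob chow, 3220.0 on ob/ob with NDGA, against 388 on WT high-fat with NDGA, 485 on WT high-fat and 323 on WT chow (1.96). Fasn, the fatty acid synthase, read 8865 on ob/ob chow, 13422 on ob/ob with NDGA, against 3856 on WT high-fat with NDGA, 6386 on WT high-fat and 4148 on WT chow (1.09). For both genes the ob/ob arrays were the highest of the 5. These 2 of 22 passing members were past 2-fold and 0 were lower. Acaca, which makes malonyl-CoA, was at 0.88, Pgd, an NADPH-forming enzyme, at 0.86, and the elongase Elovl6 at 0.76. The list median was 0.19 and the range among members ran to -0.45, with Acly, the citrate lyase, at 0.17, the regulator Mlxipl at -0.42 and Acacb, the mitochondrial carboxylase, at -0.45. The main desaturase Scd1 was saturated on both arrays and gave no difference.

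**Figure D3:**
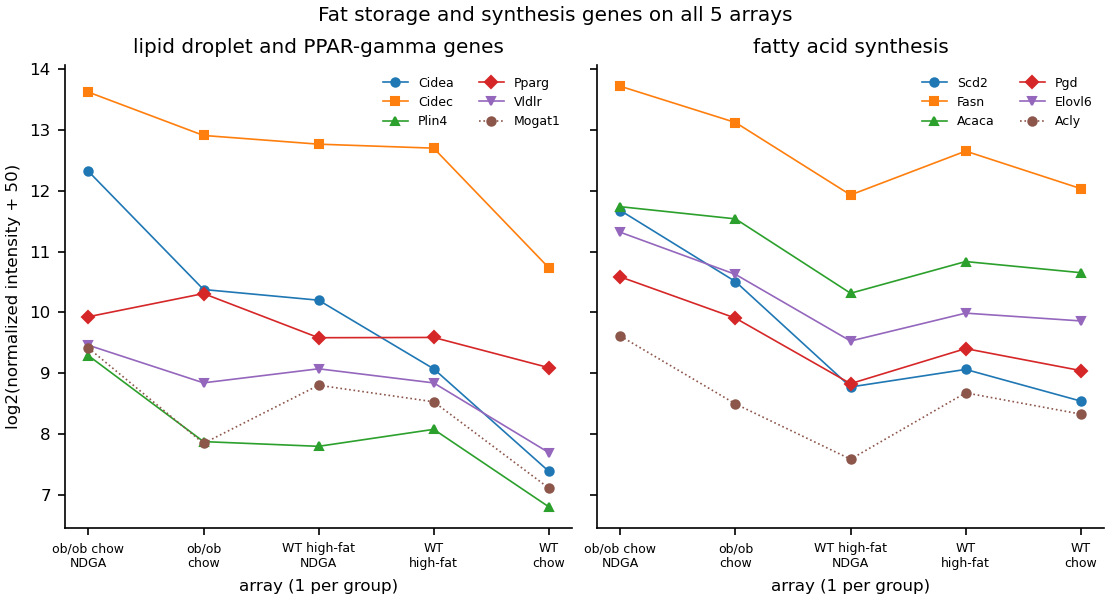
Values of 6 lipid droplet and PPAR-gamma genes and of 6 fatty acid synthesis genes, as log2(normalized intensity + 50), on each of the 5 arrays with 1 array per group. The droplet and PPAR-gamma genes are lowest on WT chow, whereas Scd2, Fasn, Acaca, Pgd and Elovl6 are higher on both ob/ob arrays than on any WT array.

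Triglyceride assembly, fatty acid uptake and oxidation were close together on the chow arrays. Of 16 passing triglyceride synthesis genes 0 differed 2-fold, with Gpam, the first acyltransferase of the pathway, at 0.84 (0.39 averaged over its probes), Plpp2 at 0.83 and Dgat2, which makes the final ester bond, at -0.26. Fatty acid uptake genes had 1 of 12 past 2-fold, Vldlr, and a median of -0.24. Mitochondrial beta-oxidation had 0 of 19 past 2-fold and a median of -0.03, from Eci2, an enoyl-CoA isomerase, at -0.70 to the ketone enzyme Bdh1 at 0.76. Peroxisomal beta-oxidation had a median of -0.001, with the lower Nudt7 and the higher Abcd2 as its 2 members past 2-fold. Ppara, the nuclear receptor of fatty acid oxidation, read 578 on ob/ob chow and 682 on WT chow (-0.22). The list of Ppara and its other targets, outside beta-oxidation, had 0 of 14 past 2-fold and a median of -0.22, with Fgf21, a fasting hormone, at -0.38, Angptl4, a lipase inhibitor, at -0.75 (-0.18 averaged over its probes) and Cyp4a14, a fatty acid hydroxylase, at 856 on ob/ob chow and 859 on WT chow.

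Cholesterol synthesis genes lay below 0 for 11 of 14 passing members, with a median of -0.35, but 0 reached 2-fold on their brightest probes. Nsdhl, at -0.39 by that rule, was at -1.04 on another passing probe. Of all 8319 genes 3519 were lower by less than 2-fold. Tm7sf2, a sterol reductase, read 201 on ob/ob chow and 445 on WT chow (-0.98). The sterol carrier Stard4 was at -0.72 and the demethylating oxidase Msmo1 at -0.54, and the highest member was Insig1, a sterol-sensing retention protein, at 0.27. Apolipoprotein and lipoprotein genes had 2 of 21 past 2-fold upward and 2 downward. Apoa4, an apolipoprotein of triglyceride-rich particles, read 64393 on ob/ob chow, 63459 on ob/ob with NDGA, against 12929 on WT high-fat with NDGA, 63459 on WT high-fat and 18799.6 on WT chow. On ob/ob chow, ob/ob with NDGA and WT high-fat these Apoa4 readings were close to the limit of the scanner. The difference of 1.77 may therefore be compressed, and whether WT high-fat was as high as ob/ob cannot be read from this probe. The other Apoa4 probe, far below the limit, read 11075 on ob/ob chow and 2340 on WT chow (2.22). Vldlr was the other higher member. Apom, the sphingosine phosphate carrier of high density lipoprotein, read 3928 on ob/ob chow and 9192 on WT chow (-1.22), and Pltp was at -1.06.

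Bile acid synthesis genes had 2 of 20 at least 2-fold lower, Cyp7b1 and the muricholic acid hydroxylase Cyp2c70 at -1.06, and 0 higher. The share lower among all genes was 1.79%. Cyp7a1, the rate-limiting enzyme of the classical pathway, read 172 on ob/ob chow and 343 on WT chow (-0.83). The sterol hydroxylases Cyp39a1 and Cyp27a1 were at -0.89 and -0.74, and Cyp8b1, which sets the cholic acid share, at -0.12. Among transporters, Slc51b, a subunit of the basolateral bile acid exporter, read 582 on ob/ob chow and 1417 on WT chow (-1.22). Abcc4, another basolateral exporter, read 212 on ob/ob chow, 462 on ob/ob with NDGA, against 47.7 on WT high-fat with NDGA, 70.6 on WT high-fat and 52.9 on WT chow (1.35). It lay above the level of the filter on both ob/ob arrays and on no WT array. The canalicular bile salt pump Abcb11 was at -0.12 and the uptake carrier Slc10a1 at -0.42.

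Glucose production genes did not reach 2-fold in any of 18 passing members, with G6pc, the glucose-releasing phosphatase, at -0.02 and Pck1, the gluconeogenic carboxykinase, at -0.48. Glycolysis and fructose genes had 2 of 15 at least 2-fold higher. Gpi1, the phosphoglucose isomerase, was at 1.18, or 0.68 averaged over its probes, and Hk2, the hexokinase of muscle and fat, read 288 on ob/ob chow and 104 on WT chow (1.14). The fructose enzymes Khk and Tkfc were both at 0.79. In insulin signalling 0 of 10 passed 2-fold, with Gsk3b, a glycogen synthase kinase, at -0.98 and the receptor Insr at 0.38.

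Enzymes of drug and glutathione metabolism differed in both directions. Targets of NRF2, the regulator of antioxidant genes, and glutathione enzymes had 4 of 26 at least 2-fold higher, with 0 lower. The share higher among all genes was 1.03%. The 4 higher genes were Cbr3, the glutathione transferase Gstm3, the microsomal transferase Mgst3 at 1.43 and Srxn1, the sulfiredoxin, at 1.08. Gstm3 read 1077 on ob/ob chow, 2919 on ob/ob with NDGA, against 247 on WT high-fat with NDGA, 634 on WT high-fat and 168 on WT chow, so WT chow was lowest. Averaged over their probes Mgst3 was at 0.86 and Srxn1 at 0.89. Gstm2 was at 0.99, the carbonyl reductase Cbr1 at 0.86, the epoxide hydrolase Ephx1 at 0.83 and the heme oxygenase Hmox1 at 0.78, and the list median was 0.14. Nqo1 and Gclc, common readouts of NRF2, were near background, at 7.63 and 9.37 on ob/ob chow and 8.30 and 6.98 on WT chow.

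Of 22 passing members of the CYP2 and CYP3 families 4 were at least 2-fold lower and 2 higher, against 1.79% and 1.03% of all genes. The 2 higher ones were Cyp2b9 at 3.48 and Cyp2b13 at 1.55. The epoxygenase Cyp2c23 read 1286 on ob/ob chow and 4019 on WT chow (-1.61, or -0.78 averaged over its probes), and Cyp2c29 was at -1.26, beside Cyp2d9 and Cyp2c70 described above. Cyp2e1, the ethanol-oxidising P450, was at -0.43 and Cyp3a13 at 0.37. Conjugation enzymes had 3 of 20 lower and 0 higher, against 1.79% lower among all genes. Ugt1a1, a glucuronosyltransferase, was counted by its brightest probe, at -0.09. Its other passing probes ran from -0.83 to 1.47, with further ones past 2-fold upward at 1.41 and 1.28. Sult1a1, a phenol sulfotransferase, read 449.9 on ob/ob chow, 2438 on ob/ob with NDGA, against 1041 on WT high-fat with NDGA, 1941 on WT high-fat and 994 on WT chow (-1.06). Papss2, which makes its sulfate donor, was at -1.21 (-0.71 averaged over its probes), and Ces3b was the third. For Sult1a1 and Papss2 the ob/ob chow array was the lowest of the 5, and the other ob/ob array was not low, with Papss2 at 1845. The leukotriene hydroxylase Cyp4f14 was the 1 of 8 passing CYP4 genes past 2-fold, at -1.05.

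Amino acid breakdown genes lay below 0 for 31 of 40 passing members, with a median of -0.24, and Oat, the ornithine aminotransferase, was the 1 gene past 2-fold (-1.02). Of all 8319 genes 3519 were lower by less than 2-fold and 149 by at least 2-fold. Oat was within 2-fold under 3 of 11 alternatives, at its smallest -0.84. Prodh, the proline dehydrogenase, was at -0.95, Agxt, the glyoxylate aminotransferase, at -0.79, and Hpd, of tyrosine breakdown, at -0.71. In the urea cycle list 2 of 12 were lower, Oat and the mitochondrial carbonic anhydrase Car5a, which read 2942 on ob/ob chow and 6126 on WT chow (-1.05). Cps1, the entry enzyme of the cycle, was at -0.81. Chaperones of the endoplasmic reticulum had 2 of 21 lower, 0 higher and a median of -0.27. Creld2 read 922 on ob/ob chow and 2420.3 on WT chow (-1.35), Sdf2l1 was at -1.08, and the chaperone Hspa5 at -0.26. In the integrated stress response Atf5 was at 1.09 and Slc3a2, an amino acid transporter subunit, at -1.30, with Ddit3 at -0.03.

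Of 14 passing markers of macrophages and Kupffer cells, the resident macrophages of liver, 13 lay above 0. By 2-fold or more 3 were higher, against 1.03% of all genes, and 0 lower. The median was 0.73, or 0.26 over all 28 on the array, since 14 were too dim to pass. The complement gene C1qb read 4201 on ob/ob chow, 3290.5 on ob/ob with NDGA, against 1298 on WT high-fat with NDGA, 2934 on WT high-fat and 1649.5 on WT chow (1.32). The endotoxin co-receptor Cd14 was at 1.23, Vsig4, a complement receptor of resident macrophages, at 1.11, Cd68 at 0.93 and Adgre1, the F4/80 antigen, at 0.73. Clec4f, a marker of resident Kupffer cells, read 855 on ob/ob chow and 779 on WT chow (0.13). Summed over the 28 macrophage markers on the array, the level was 16731 on ob/ob chow and 8763 on WT chow. Such sums, here and below, are weighted towards the brightest probes, since levels cannot be compared between genes.

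Lgals3, a galectin in none of the lists and named after its value was seen, read 4054 on ob/ob chow, 4017 on ob/ob with NDGA, against 893 on WT high-fat with NDGA, 2349.9 on WT high-fat and 812 on WT chow (2.25). Anxa2, a phospholipid-binding annexin, read 4019 on ob/ob chow, 9018 on ob/ob with NDGA, against 1874 on WT high-fat with NDGA, 5512 on WT high-fat and 775 on WT chow. For both genes WT chow was lowest, and the WT high-fat array was high as well. Of 14 passing chemokine and cytokine genes 8 lay above and 6 below 0 (median 0.05), and 3 were at least 2-fold higher: Spp1, osteopontin, at 1.36, Ccl6 at 1.33 and Ccl4 at 1.14, while Tnf was at 0.15. Acute phase proteins had 2 of 19 higher, Cd14 and the lipocalin Lcn2, which read 374 on ob/ob chow and 60.6 on WT chow (1.94). The part of the macrophage marker level in these differences was not tested.

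Interferon-induced genes had 0 of 21 past 2-fold and a median of -0.13, and antigen presentation genes 0 of 11, from H2-DMa at -0.72 to H2-Aa at 0.77. Of 6 passing lymphocyte markers 0 were past 2-fold, and the 17 on the array summed to 2644 on ob/ob chow and 2999 on WT chow. Neutrophil markers had 0 of 5 past 2-fold, and S100a8, too dim to pass, read 157 on ob/ob chow and 28.8 on WT chow.

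Genes of stellate cells and scar matrix lay above 0 for 24 of 25 passing members, with a median of 0.43 (0.28 over all 35 on the array). Of these 25, 4 passed on 1 chow array alone. By 2-fold or more 5 were higher, against 1.03% of all genes, and 0 lower. Col1a2, a chain of type I collagen, read 354 on ob/ob chow, 489 on ob/ob with NDGA, against 209 on WT high-fat with NDGA, 664 on WT high-fat and 86.2 on WT chow (1.57). Its WT chow value lay below the level of the filter. The intermediate filament gene Vim was at 1.11. Acta2, an actin that activated stellate cells make, was at 1.96 on its brightest probe and at 0.44 as the mean of its 4 probes. Col3a1 was at 1.44, or 0.76 over its probes, and the crosslinking enzyme Loxl1 at 1.07, or 0.52. With means of probes 2 of the 25 were past 2-fold. The basement membrane collagens Col4a1 and Col4a2 were at 0.63 and 0.83, and Timp1, an inhibitor of matrix proteases, at 0.34. Summed over the 35 genes of this list on the array, the level was 56560 on ob/ob chow and 42599 on WT chow.

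Markers of sinusoidal endothelium had 1 of 16 past 2-fold, Lyve1 at 1.21, with a median of 0.20 that was -0.07 without normalization, and the 20 on the array summed to 35615 on ob/ob chow and 29873 on WT chow. Bile duct markers had 1 of 9 past 2-fold, which was Spp1, with the keratin Krt19 at 0.31. Hepatocyte markers had 0 of 13 past 2-fold and a median of -0.15, and the 15 on the array summed to 349387 on ob/ob chow and 370611 on WT chow, with albumin, Alb, at 64868 on ob/ob chow and 65859.9, at saturation, on WT chow, which fits the labelled tissue. Skeletal muscle markers went both ways, with Tnnt3 higher, and Myh2 and Tnnc2, a fast myosin and a fast troponin, lower at -2.15 and -1.39. The defining muscle genes Ckm and Acta1 were near background, at 13.6 and 7.59 on ob/ob chow and 13.4 and 11.3 on WT chow. Pancreatic acinar markers had 0 of 5 past 2-fold.

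**Figure D4:**
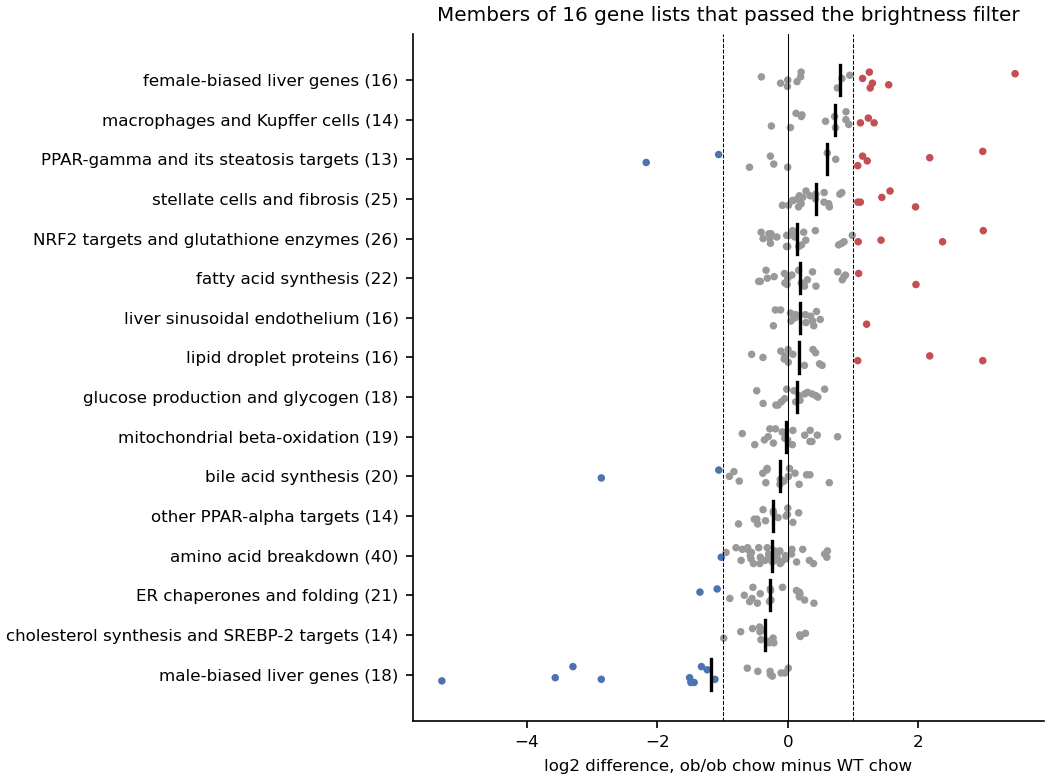
Log2 difference, ob/ob chow minus WT chow, of each passing member of 16 gene lists, with the number of members in brackets, the list median as a bar and 2-fold as dashed lines; red points are at least 2-fold higher and blue points at least 2-fold lower. Medians range from 0.80 for female-biased genes to -1.18 for male-biased genes, and most members of the metabolic lists lie within 2-fold.

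Other lists were close to the background. Oxidative phosphorylation subunits had 0 of 39 past 2-fold and a median of -0.02, ribosomal proteins 0 of 12, heme and iron genes 0 of 23 and clock genes 0 of 16, with the clock output gene Dbp at -0.64. Cell cycle genes had 1 of 19 higher, Cdkn1a, the p21 inhibitor, with 1618 on ob/ob chow and 625 on WT chow (1.30, and 2.11 on its other passing probe). The cyclin gene Ccnd1 was at 0.89. The lower member was E2f7, a repressor of the cycle, which read 64.4 on ob/ob chow and 3197 on WT chow, a value at least 4-fold above every other array. Tubb2a, a tubulin in none of the lists and chosen after its value was seen, read 5543 on ob/ob chow and 1402 on WT chow (1.95).

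Many of the lowest genes shared an order over the 5 arrays. From high to low the order was WT chow, WT high-fat with NDGA (at most equal to WT chow), WT high-fat, ob/ob chow and ob/ob chow with NDGA. It held for 76 of the 149 lower genes (51.0%) and for 36 of the 54 that were at least 4-fold lower (66.7%). Among the 3519 genes that were lower by less than 2-fold it held for 88 (2.5%), and among all 8319 for 164 (1.97%). A gene higher on ob/ob chow than on WT chow cannot be in this order by its definition. The share over all genes therefore includes genes that could not qualify. Mc1r, the melanocortin receptor of pigment cells, read 2749.8 on ob/ob chow, 1102 on ob/ob with NDGA, against 12678 on WT high-fat with NDGA, 7783 on WT high-fat and 39519.9 on WT chow (-3.82). Trpm5, a cation channel of taste cells, read 1019.6 on ob/ob chow, 379 on ob/ob with NDGA, against 7341 on WT high-fat with NDGA, 4307 on WT high-fat and 17582 on WT chow (-4.04, or -2.12 averaged over its probes). These are genes of other tissues, read at high intensity on the WT chow array.

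Of the 12 lowest genes, Hsd3b5, Pp2d1, Trpm5, Mc1r, St3gal6, Olfr355, Olfr24 and Hsf2bp were in this order, and their differences ran from -5.30 to -3.02. Pp2d1 was at -4.49 on its brightest probe and at -1.60 averaged over its probes, and St3gal6, a sialyltransferase, at -3.39 and -1.47. Of 689 olfactory receptor genes on the array 168 passed, 9 were at least 2-fold lower, 6 of these in the order, and 0 were higher. Among all genes 1.79% were lower and 1.03% higher. Transcription factor genes were in the order too, with Irf2 at -2.89, Nrf1 at -2.17 and Hic1 at -2.05, as were the male-biased genes Hsd3b5, Ces3b, C6 and Keg1, the exporter subunit Slc51b and Cyp4f14. Of the 10 lower male-biased genes 6 were outside the order, and without all genes in the order the male-biased median was -0.54. Relative to WT chow the 76 genes had medians of -2.31 on ob/ob chow with NDGA, -1.86 on ob/ob chow, -0.59 on WT high-fat with NDGA and -1.24 on WT high-fat. The 73 other lower genes had medians of -1.47, -1.36, -0.55 and -0.83 in the same order of arrays. The sign of these medians is set by the choice of the order for the 76 genes, and the cause of the order was not tested. Slco1a1, Susd4, Cyp7b1, Igfbp2, Igf1, Apom and Cyp2c70 were outside it, as were E2f7 and Polr2e, an RNA polymerase subunit that read -9.80 on ob/ob chow and 622 on WT chow.

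**Figure D5:**
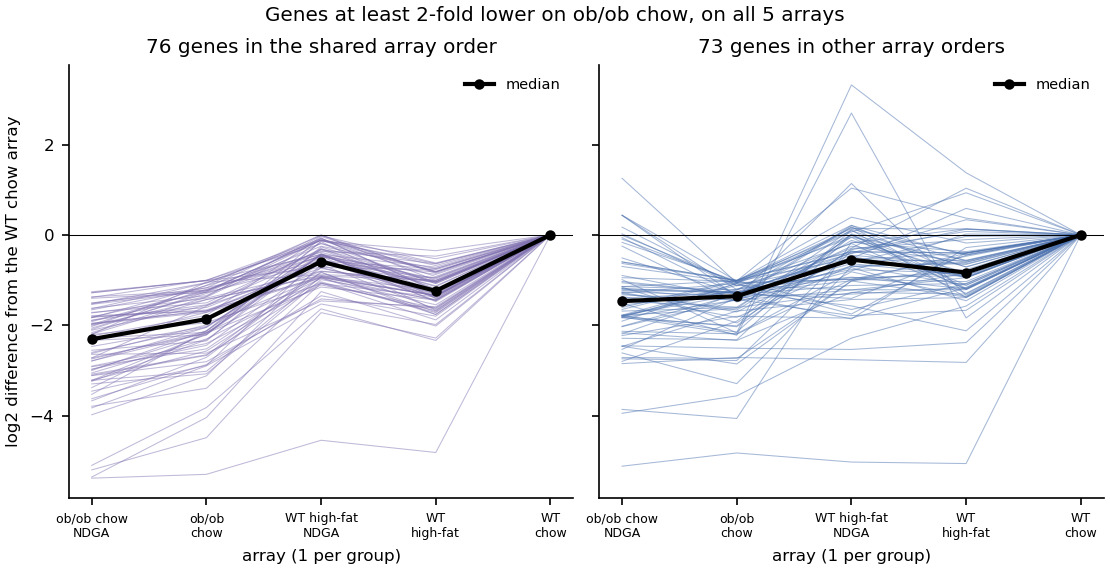
Log2 difference of each array from WT chow for the 149 genes that were at least 2-fold lower on ob/ob chow, 1 line per gene, with the 76 genes in the shared order on the left and the other 73 on the right; black lines are medians. On the left the median lies below 0 on all 4 other arrays, to -2.31 on ob/ob with NDGA and -1.86 on ob/ob chow.

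A comparison of genotypes on 2 further arrays, ob/ob chow with NDGA minus WT high-fat with NDGA, shares no array with the chow comparison. It differs from it in the diet of the WT mice and in NDGA on both sides. With the filter taken over all 5 arrays, 86 genes (1.03%) were higher in the chow comparison and 552 (6.64%) in the NDGA comparison, and 47 were higher in both, which is 54.7% of the chow genes and 8.51% of the NDGA genes, with 0 in opposite directions. For lower genes the counts were 146 (1.76%) and 254 (3.05%), of which 96 were shared, 65.8% of the chow genes and 37.8% of the NDGA genes, with 2 in opposite directions. The 76 lower genes in the shared array order are, by its definition, lower in the NDGA comparison too, by any amount. They add to this overlap, which was not counted without them. Genes of both comparisons included Ly6d at 4.60 on chow and 3.05 with NDGA, Scd2 at 1.96 on chow and 2.90 with NDGA, Gstm3 at 2.37 on chow and 3.32 with NDGA, and Igfbp2 at -2.32 on chow and -2.29 with NDGA. Of 18 male-biased genes that passed on this filter, 10 were lower and 0 higher on chow (median -1.18), and 6 were lower and 1 higher with NDGA (median 0.15). The 6 were Slco1a1 at -1.66, Susd4 at -1.91, Cyp7b1 at -1.45, Ces3b at -1.39, C6 at -1.28 and Keg1, just past 2-fold, all lower on chow as well, and the higher gene was Serpina12 at 2.62. Of 17 female-biased genes, 6 were higher and 0 lower on chow (median 0.76), and 5 were higher and 0 lower with NDGA (median 0.39), with Cyp2b13, at 1.08 with NDGA, in both. Cyp2b9 was at 3.48 on chow and 0.57 with NDGA, Rgs16 at 1.30 on chow and -0.64 with NDGA, and Hsd3b5 at -5.30 on chow and -0.84 with NDGA, so these 3 were within 2-fold in the NDGA comparison, where the WT mice had the high-fat diet.

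Agreement between probes of a gene was limited. Among the 86 higher genes 8 had another passing probe, which was at least 2-fold higher in 3 (Apoa4, Cdkn1a and Mgst3) and above 0 in 7. Among the 149 lower genes 15 had another passing probe, at least 2-fold lower in 1 (Ces3b) and below 0 in 10. A total of 14 higher and 27 lower genes passed the filter on 1 of the chow arrays alone, and 3 higher and 4 lower genes rested on a reading at least 4-fold above every other array. The higher genes next to the threshold were at 1.00 inside it and 0.99 outside it.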

How the data were processed

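Per the labels, amplified liver RNA was labelled with Cy5 and hybridised in 1 colour to Phalanx Mouse OneArray slides, with 1 array for each of 5 groups. The deposited unit is a linear intensity per probe, judged from the numbers alone: some lie below 0, which marks a subtracted background, and 16 to 60 probes an array lie at or above 65000, near the limit of a scanner. The scanner, the background correction and any scaling by the authors are not given in these sources. Medians of the deposited intensities were 38.1 on ob/ob chow, 71.0 on ob/ob chow with NDGA, 47.0 on WT high-fat with NDGA, 39.6 on WT high-fat and 38.8 on WT chow.

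The 5 arrays were quantile normalized (NumPy 2.4.6, pandas 2.3.3) and log2(intensity + 50) was taken. The platform table named 21020 of 29922 probes with 1 gene symbol and left 8902 unnamed. Symbols were updated through RefSeq (GRCm38.p6; 17558 current, 3410 replaced, 52 kept), which gave 16637 genes, 3566 of them with several probes. A gene was read from its probe of highest mean log2 value, and a gene passed where the mean log2 value of both chow arrays reached the median of that mean over genes. Genes at least 2-fold apart were counted, and no test was possible with 1 array a group, so the number of arrays limits the precision. The counting steps were tested on simulated data. Promoter windows are RefSeq's.

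The genes named are the 12 highest and 12 lowest, the members of 54 gene lists that were at least 2-fold apart with up to 6 further members of each, and Lep, Lepr, Ppara and sex chromosome transcripts. A few others are named where a list or an array pattern is described, such as Irf2, Nrf1 and Hic1, or for a known role within 2-fold, such as Plin2, G6pc, Tnf and Alb, and were chosen after their values were seen. The comparison, the lists and these rules were chosen with earlier results of these data known. Alternatives were no normalization, median centring, quantile normalization of the chow arrays alone, a loess (span 0.3, statsmodels 0.14.6), offsets of 16 and 100, other filters, means of probes and leaving out saturated probes.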

Additional observations from a re-analysis of the deposited data

Results flagged for a closer look

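Probes without a gene name were in none of the comparisons above. Of 8902 such probes 2614 passed the filter on dim probes. On the ob/ob chow array 14 of them were at least 2-fold higher and 76 at least 2-fold lower than on WT chow, a signal in data that the report does not use. Of the 76 lower probes 51 followed the order over the 5 arrays that 76 named lower genes shared, with WT chow at the top and ob/ob chow with NDGA at the bottom. What these probes measure is unknown here.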

How the results depend on the processing

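No paired analysis was possible because each group has 1 array. The counts of 86 higher and 149 lower genes were 47 and 202 without normalization, 48 and 198 with median centring, and 73 lower genes remained when genes in the shared array order were left out, an alternative chosen after seeing the data. Under the other 9 settings higher genes numbered 60 to 100 and lower genes 100 to 166. With an offset of 16, values below -15 were set to -15. Of 82 named genes that were 2-fold apart, 55 stayed so under all 11 alternatives, 27 fell below 2-fold in at least 1, and 0 turned direction. The filter settings among the 11 could not change a gene's difference, and a gene that failed such a filter still counted as staying. With both chow arrays required to reach the level of the filter, 72 higher and 122 lower genes were counted. Without normalization 14 were below 2-fold, Fasn, Pparg, Vldlr, Plin4, Hk2, Cyp17a1 and Rgs16 among them. With means of probes 11 were, Acta2, Col3a1, Abcd2 and Cyp2c23 among them. Igf1, Car5a and Oat were below 2-fold with the chow arrays quantile normalized alone. Over all alternatives list medians ran from -1.25 to -0.41 for male-biased genes, 0.21 to 0.95 for female-biased genes, 0.26 to 0.89 for macrophages, 0.23 to 0.64 for stellate cells, 0.08 to 0.77 for PPAR-gamma genes and -0.58 to -0.27 for cholesterol synthesis. The acute phase median of 0.09 was -0.21 without normalization. Between 45.1% and 54.1% of probes an array read below 50, so differences of dim genes may have been missed.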
